A study of Mus musculus with 14 samples.

Results

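The Hox gene clusters of mouse embryonic stem cells were examined across culture media that hold the cells at different points between naive and primed pluripotency. Members were all genes with a symbol of the form Hox, a cluster letter from a to d and a paralog number, which gives 39 genes. Of these, 37 are described here, out of 37991 genes in the files, and every count, sum and share below is over these 37. Hoxd4 was not matched to an identifier and is not analysed here. Antisense and opposite strand transcripts of the clusters were left out of the members.

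All cells were C57BL/6 dual reporter embryonic stem cells, in which mCherry was driven from the mir-290 locus and eGFP from the mir-302 locus, so every group, controls included, carries both reporters. In the 5-media experiment the cells were plated at low density and kept for 5 days, with 2 libraries per medium. FBS/LIF is serum with leukemia inhibitory factor. To this were added 500 µM vitamin C for VitC/LIF, L-proline for L-Pro/LIF (the labels give no dose here), or the MEK and GSK3 inhibitor pair for 2i/LIF. F/A is N2B27, which is free of serum, with 20 ng/ml of activin A and 12 ng/ml of bFGF. In the second experiment, called the single-library experiment below, the 4 libraries came from cells labelled mCherry and eGFP positive. They were untreated cells of day 0, held in serum, LIF and 100 µM vitamin C, cells after 5 days of 1 mM L-proline, and cells after 3 and after 5 days of bFGF and 20 ng/ml activin A. The 2 experiments differ in RNA extraction, vitamin C dose and cell population and were never pooled.

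Hox genes encode homeodomain transcription factors that give cells their position along the head-to-tail axis of the embryo. They lie in 4 clusters, in which genes at the 3′ end (low paralog numbers) come on first and most anteriorly, and genes at the 5′ end (high paralog numbers) later and more posteriorly. In embryonic stem cells the clusters are known as classic targets of Polycomb repression, and retinoic acid, Wnt and FGF signals are known to open them, while PBX and MEIS proteins are their DNA-binding partners.

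Promoter windows from RefSeq, running from 250 bases before to 50 after a gene's start (GRCm38.p6, a later build than that of the files), were matched for 21 of the 37 genes, in 23 windows. The 3 printed here belong to members on which the results turn: the paralog group 1 genes Hoxb1 and Hoxd1, which were higher in F/A, and Hoxd13, the most abundant member of its cluster at the opposite end. Capitals mark TGATNNAT, the site bound by PBX and HOX together, and CCAAT, a general promoter box, on either strand. No match of the one overlaps a match of the other in these windows. They are Hoxb1 at chr11:96365508-96365807, Hoxd1 at chr2:74762730-74763029 and Hoxd13 at chr2:74667975-74668274, all on the plus strand.
Hoxb1: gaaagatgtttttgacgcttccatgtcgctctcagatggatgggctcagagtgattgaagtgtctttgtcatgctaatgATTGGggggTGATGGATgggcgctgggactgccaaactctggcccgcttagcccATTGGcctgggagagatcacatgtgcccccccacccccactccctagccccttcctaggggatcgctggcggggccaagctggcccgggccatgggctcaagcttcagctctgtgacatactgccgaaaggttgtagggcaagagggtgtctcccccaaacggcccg
Hoxd1: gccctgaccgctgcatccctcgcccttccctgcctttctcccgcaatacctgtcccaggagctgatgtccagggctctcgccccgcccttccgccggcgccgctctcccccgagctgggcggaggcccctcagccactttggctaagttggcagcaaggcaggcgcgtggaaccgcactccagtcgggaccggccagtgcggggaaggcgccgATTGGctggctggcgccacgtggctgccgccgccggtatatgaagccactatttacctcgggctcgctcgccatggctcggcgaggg
Hoxd13: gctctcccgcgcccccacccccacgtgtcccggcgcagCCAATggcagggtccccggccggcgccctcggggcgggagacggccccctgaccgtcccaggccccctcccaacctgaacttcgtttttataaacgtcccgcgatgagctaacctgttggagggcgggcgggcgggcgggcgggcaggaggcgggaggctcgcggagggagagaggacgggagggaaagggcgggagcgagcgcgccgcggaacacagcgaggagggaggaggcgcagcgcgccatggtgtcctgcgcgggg

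TGATNNAT was found in the Hoxb1 window, with its first base at -162 from the start, and not in the Hoxd1 or Hoxd13 windows. In all, 4 of 23 Hox windows (17.4%) hold it, against 8.8% of the 32851 windows of this length in the table. CCAAT stood in all 3 windows shown and in 14 of 23 Hox windows (60.9%), against 37.4% of all windows. The number of CpG pairs was 10 in Hoxb1, 29 in Hoxd1 and 37 in Hoxd13, with a median of 15 over the 23 Hox windows and of 7 over all windows. These matches describe letters only, and the files hold no binding data for them.

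Hox RNA was scarce in every medium of the 5-media experiment. Between 53 and 258 fragments per library hit a member uniquely, out of 6937945 mapped fragments in F/A replicate 1 and 17778399 to 26354444 in the 9 other libraries. Only 9 of the 37 members passed the filter on low counts: Hoxa7, Hoxb1, Hoxb9, Hoxb13, Hoxc12, Hoxc13, Hoxd1, Hoxd8 and Hoxd13. The other 28 had 0 to 49 unique fragments over all 10 libraries, and none exceeded a mean of 0.685 CPM (counts scaled to a common library size) in any medium. Hoxa6 had no unique fragment at all, and 31 members stayed under 1 CPM in every medium. A member could pass the filter through a single medium in which it was high, so the counts below describe the members and carry no weight on their own. In bulk RNA, fewer cells that express a gene and less RNA per cell cannot be told apart.

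**Figure D1:**
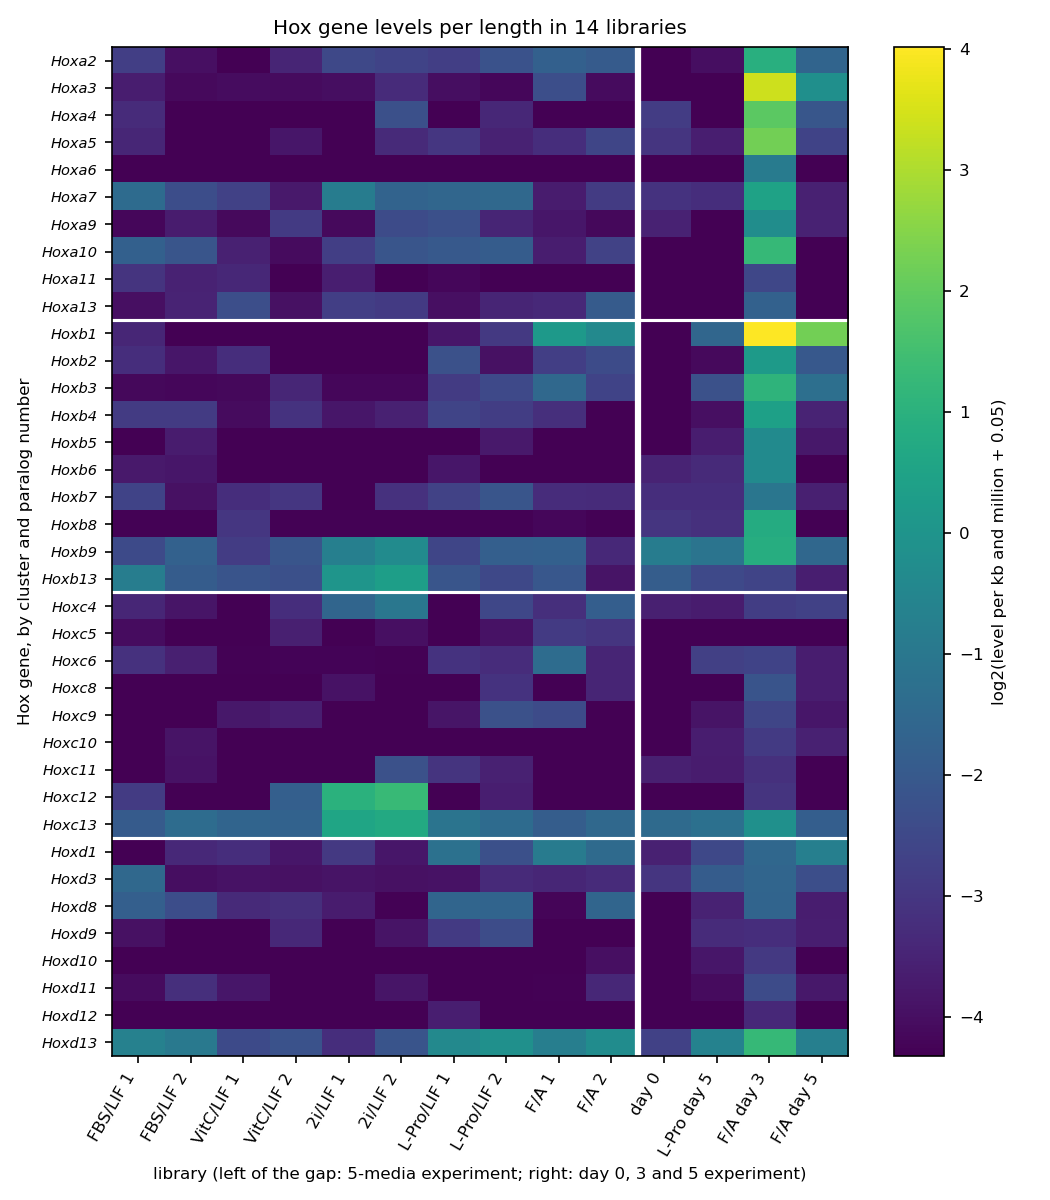
Each row is 1 of the 37 Hox genes, ordered by cluster and paralog number, and each column is a library. Colour is the log2 of the level per kilobase (for depth-scaled reads) plus 0.05, as FPKM for the 10 libraries on the left and as counts scaled by length and total for the 4 on the right. Lengths on both sides come from the 5-media files, and the 2 sides were counted and scaled separately. F/A day 3 is the brightest column, with Hoxb1 at 16.1 and Hoxa3 at 10.4. The Hoxa3 length came from libraries in which it had 4 unique fragments.

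Along each cluster the levels were uneven. By level per length (FPKM, mean of 2 libraries), the highest of the Hoxa genes described was Hoxa7, a gene of the thorax, in FBS/LIF (0.235), 2i/LIF (0.393) and L-Pro/LIF (0.294), Hoxa13 in VitC/LIF (0.0825) and Hoxa2 in F/A (0.226). Hoxd13, which specifies the most distal digits and the urogenital end of the body, led the Hoxd cluster in all 5 media, from 0.116 in 2i/LIF to 0.788 in L-Pro/LIF. In the Hoxc cluster Hoxc13, a gene of tail, hair and nail, led in 4 media at 0.263 to 0.369 FPKM, and Hoxc12 led in 2i/LIF at 2.18. In the Hoxb cluster the most posterior gene, Hoxb13, led in FBS/LIF (0.374), VitC/LIF (0.165) and 2i/LIF (1.10), Hoxb9 in L-Pro/LIF (0.177) and Hoxb1 in F/A (0.888). Neighbours in these orders with levels near 0.1 FPKM rest on a few fragments and are not separated by the spread between libraries. The middle of the clusters, paralogs 5 to 8, gave 6.18% to 26.97% of the summed Hox CPM in the 10 libraries.

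The balance between the ends differed from medium to medium. The 10 members of paralog groups 1 to 4 gave 18.4% and 11.9% of the summed Hox CPM in the FBS/LIF libraries, 10.7% and 16.9% in VitC/LIF, and 9.95% and 10.8% in 2i/LIF. Their share was 24.7% and 20.35% in L-Pro/LIF and 54.55% and 41.6% in F/A. The F/A libraries thus lay above the other 8. Those of L-Pro/LIF lay above the remaining 6 only narrowly, at 20.35% against 18.4% in FBS/LIF replicate 1. Groups 1 to 4 had only 25 and 13 unique fragments in FBS/LIF, 5 and 10 in VitC/LIF and 21 and 28 in 2i/LIF. They had 36 and 43 in L-Pro/LIF and 27 and 57 in F/A. The 16 members of groups 9 to 13 gave 80.1% and 83.0% in 2i/LIF and 36.4% and 41.6% in F/A, the highest and the lowest medium. Summed over the 37 members, the level was 3.09 and 3.76 CPM in VitC/LIF, 7.03 and 5.11 in FBS/LIF, 6.97 and 7.70 in F/A, 7.98 and 9.13 in L-Pro/LIF, and 10.65 and 14.5 in 2i/LIF. These sums were not tested.

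**Figure D2:**
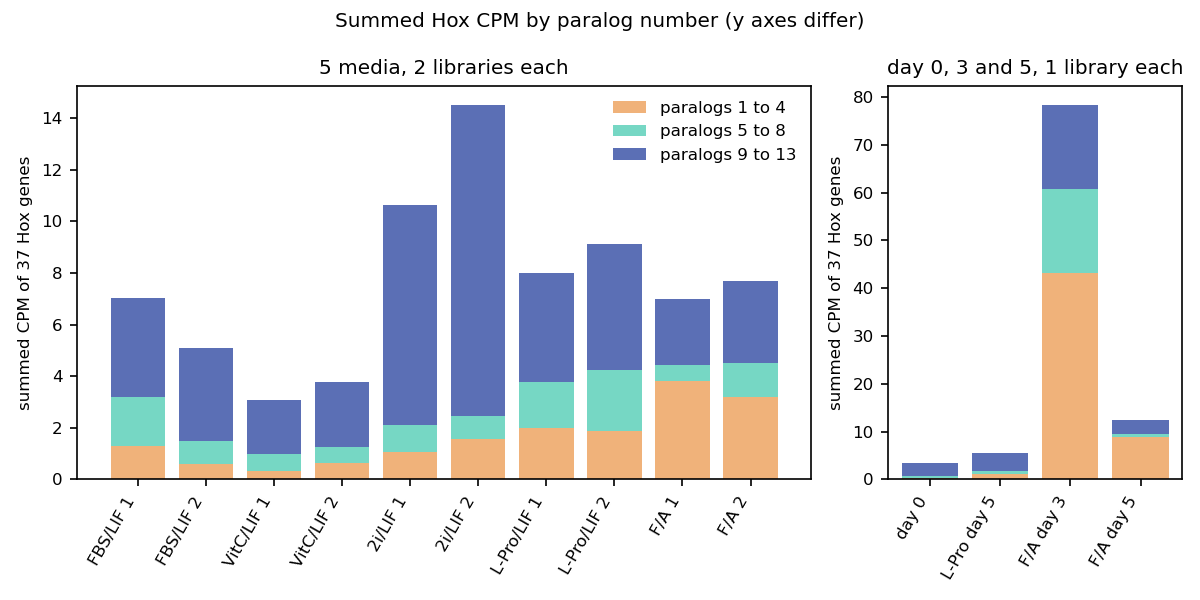
Bars give the summed CPM of the 37 Hox genes in each library, split by paralog number, for the 5-media experiment on the left and the single-library experiment on the right, with different vertical scales. Paralogs 1 to 4 make up 54.55% and 41.6% of the bars in F/A and paralogs 9 to 13 make up 80.1% and 83.0% in 2i/LIF.

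F/A was next compared with FBS/LIF. These media differ in serum, LIF and N2B27 as well as in activin A and bFGF, and these differences cannot be told apart here. Hoxb1 and Hoxd1, at the 3′ ends of their clusters, were called higher in F/A, and no member was called lower. Calls are those with an adjusted p under 0.05 in edgeR's quasi-likelihood test over 16033 genes, where 24.4% of genes were called higher and 22.0% lower. The 2 of 9 tested members called higher are thus near the share of all genes. At an unadjusted edgeR p under 0.05, 1 member (Hoxb13) and 25.7% of all genes were lower, and DESeq2 called 0 members and 22.3% of all genes lower. Nothing in the labels tells whether libraries of the same medium had separate cultures as their source, so these p-values measure only the spread between the libraries, which may be technical.

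Hoxb1, the gene of rhombomere identity in the hindbrain whose own upstream control region is a textbook target of PBX and HOX, had most of its fragments in F/A. Unique fragments numbered 10 and 24 in F/A, 1 and 4 in L-Pro/LIF, 2 and 0 in FBS/LIF, and 0 in the 4 libraries of VitC/LIF and 2i/LIF. Its level was 1.27 and 1.20 CPM in F/A and at most 0.158 CPM in any other library, so F/A did not overlap any medium. The log2 fold change over FBS/LIF was 4.54 (SE 1.01, edgeR adjusted p = 0.012, n = 2 libraries each). Because FBS/LIF held 2 fragments in all, the ratio of summed unique fragments, 29.0, has a 95% counting interval from 7.43 to 249.

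Hoxd1, the group 1 gene of the Hoxd cluster, had 6 and 10 unique fragments in F/A, 14 and 7 in L-Pro/LIF, 3 and 1 in 2i/LIF, 2 and 1 in VitC/LIF, and 0 and 2 in FBS/LIF. Levels were 0.761 and 0.50 CPM in F/A and 0.596 and 0.277 in L-Pro/LIF, and no library of the 3 other media exceeded 0.159 CPM. F/A and L-Pro/LIF overlapped and both lay above the others. The log2 fold change of F/A over FBS/LIF was 3.52 (SE 1.01, edgeR adjusted p = 0.021), and the ratio of summed unique fragments was 13.65 with a 95% counting interval from 3.21 to 122. The call was lost without FBS/LIF replicate 1 (edgeR adjusted p = 0.099), without F/A replicate 1 (0.063) and with only these 2 media in the fit (0.063).

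Over the 9 tested members the median log2 fold change in F/A against FBS/LIF was -0.76, or -0.55 without Hoxc12, which is too low in both media for a fold, against 0.05 over all genes tested. Hoxb13, a gene of the tail end and of prostate, had 0.380 and 0.050 CPM in F/A against 1.06 and 0.469 in FBS/LIF, with a log2 fold change of -2.21 (SE 0.81, edgeR adjusted p = 0.053). It was called lower without FBS/LIF replicate 2 (adjusted p = 0.043) or F/A replicate 1 (0.016), without the filter (0.034) and on unique fragments (0.028). Hoxa7 had 0 and 0.150 CPM in F/A, 0.166 and 0.0578 in VitC/LIF, 0.601 and 0.281 in FBS/LIF, 0.505 and 0.553 in L-Pro/LIF and 0.954 and 0.505 in 2i/LIF. Its libraries in F/A and VitC/LIF lay below those of the 3 other media, and F/A against FBS/LIF gave a log2 fold change of -2.05 (SE 0.91, edgeR adjusted p = 0.096). Hoxd13 was 1.01 and 1.65 CPM in F/A against 1.34 and 1.08 in FBS/LIF, which overlap.

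Between F/A and L-Pro/LIF 1 member was called. Hoxb1 was higher in F/A (log2 fold change 3.47, SE 0.89, edgeR adjusted p = 0.038), where 11.1% of all genes were called higher and 10.9% lower. This call was lost when any 1 of the 4 libraries was left out (edgeR adjusted p from 0.067 to 0.18), and DESeq2 gave no adjusted p for the gene and called 0 of the 6 members that had one. DESeq2 called 13.0% of all genes higher and 13.7% lower. No member was called lower, and 1, Hoxa7, was lower at an unadjusted edgeR p under 0.05 (edgeR adjusted p = 0.095), as were 19.2% of all genes. Hoxd1 differed by 0.48 on the log2 scale (SE 0.76, edgeR adjusted p = 0.67), less than its error.

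**Figure D3:**
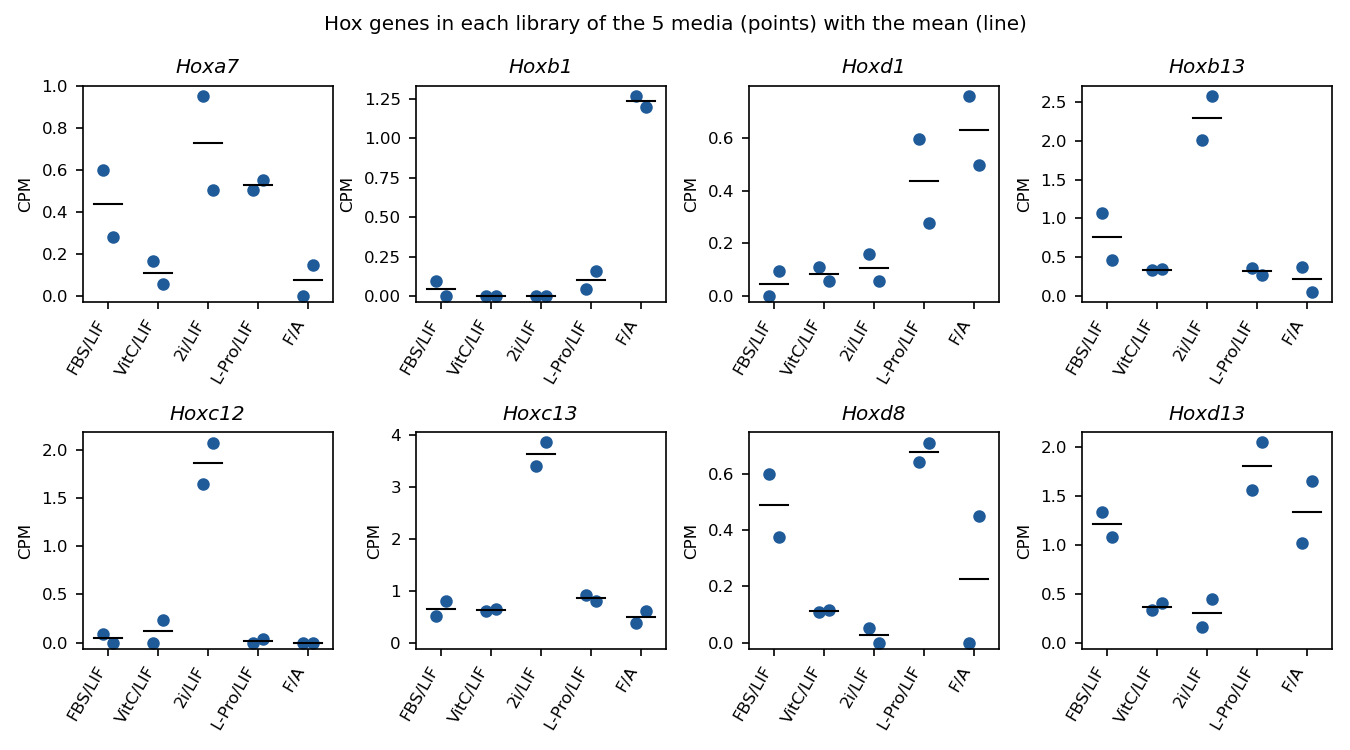
Each panel shows 1 Hox gene, with points for the 2 libraries of each medium and a line for their mean, in TMM-scaled CPM on a linear axis that differs between panels. Hoxb1 sits at 1.27 and 1.20 CPM in F/A and near 0 elsewhere, while Hoxc12 sits at 1.64 and 2.07 CPM in 2i/LIF.

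L-proline was compared with the serum base and with vitamin C, the contrast named in the study's title. Over FBS/LIF, 0 members were called higher and 0 lower by edgeR, at shares of 13.7% higher and 10.3% lower over all genes. Hoxd1 was higher at an unadjusted p only (log2 fold change 3.04, SE 0.99, edgeR adjusted p = 0.057) and was called on unique fragments (0.035). At an unadjusted edgeR p under 0.05, 1 member was higher and 0 lower, against 20.3% and 16.0% of all genes. DESeq2 called 0 members in either direction, against 14.2% of all genes higher and 10.9% lower.

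Over VitC/LIF, 1 member, Hoxd13, was called higher in L-Pro/LIF and none lower, by edgeR and by DESeq2, where edgeR called 16.8% of all genes higher and 13.0% lower and DESeq2 16.5% and 13.6%. At an unadjusted edgeR p under 0.05, 4 members (Hoxa7, Hoxd1, Hoxd8 and Hoxd13) were higher and 0 lower, against 22.2% and 18.0% of all genes. Hoxd13 stood at 1.56 and 2.05 CPM in L-Pro/LIF, 1.34 and 1.08 in FBS/LIF, 1.01 and 1.65 in F/A, 0.331 and 0.405 in VitC/LIF and 0.159 and 0.448 in 2i/LIF. The libraries of VitC/LIF and 2i/LIF overlapped each other and lay below all 6 others. Its log2 fold change of L-Pro/LIF over VitC/LIF was 2.28 (SE 0.51, edgeR adjusted p = 0.01), a call lost without either VitC/LIF library (adjusted p 0.074 and 0.054) or L-Pro/LIF replicate 2 (0.059). Hoxd8, nearer the middle of the same cluster, missed the threshold (log2 fold change 2.52, SE 0.93, edgeR adjusted p = 0.075), and it was called with only these 2 media in the fit (0.024) and on unique fragments (0.029). The median log2 fold change over the 9 tested members was 2.17, or 0.45 with Hoxb1, at 0 fragments in VitC/LIF, placed at its lower bound, against 0.02 over all genes.

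No member was called between VitC/LIF and FBS/LIF. By edgeR 0 were called higher and 0 lower, at shares of 0.362% and 0.312% over all genes, and DESeq2 called 0 of the 4 members for which it gave an adjusted p, with 1.66% of genes higher and 1.26% lower. At an unadjusted p under 0.05, edgeR had 0 members higher and 1 lower, against 5.62% and 5.61% of all genes. This member was Hoxd13, with a log2 fold change of -1.70 (SE 0.52, unadjusted p = 0.01, edgeR adjusted p = 0.22). The median log2 fold change over the 9 tested members was -1.16, or -0.80 without Hoxb1, which is too low in both media for a fold, against -0.01 over all genes.

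The 2i/LIF medium, in which MEK is inhibited and the Wnt pathway is activated through GSK3, had the most called members: 2 higher and 2 lower than FBS/LIF. Over all genes 12.5% were called higher and 17.9% lower. The higher ones were the 5′ genes Hoxc12 and Hoxc13, and the lower ones Hoxd8 and Hoxd13. The median log2 fold change of the 9 tested members was 1.11, or 1.33 without Hoxb1, again too low in both media, against -0.04 over all genes.

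Hoxc13 had 65 and 70 unique fragments in 2i/LIF, 20 and 20 in L-Pro/LIF, 11 and 17 in FBS/LIF, 12 and 11 in VitC/LIF, and 4 and 13 in F/A. At 3.39 and 3.87 CPM the 2i/LIF libraries lay above the 8 others, none of which exceeded 0.917 CPM. The log2 fold change over FBS/LIF was 2.46 (SE 0.37, edgeR adjusted p = 0.0014).

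Hoxc12, the adjacent gene of the cluster, showed a sharper pattern. It had 32 and 38 unique fragments in 2i/LIF, 2 and 0 in FBS/LIF, 0 and 4 in VitC/LIF, 0 and 1 in L-Pro/LIF and none in F/A. Levels were 1.64 and 2.07 CPM in 2i/LIF and at most 0.231 CPM elsewhere, with no overlap. The log2 fold change over FBS/LIF was 5.13 (SE 1.16, edgeR adjusted p = 0.013), and the ratio of summed unique fragments was 40.3 with a 95% counting interval from 10.8 to 339.7. The call was lost without FBS/LIF replicate 2 (edgeR adjusted p = 0.073) and without 2i/LIF replicate 2 (0.054). Hotair, a non-coding RNA between Hoxc11 and Hoxc12 that is no member here, had 1.01 and 0.336 CPM in the 2i/LIF libraries and 0 in the 8 others. At the opposite end of the cluster Hoxc4 stood at 0.530 and 0.841 CPM in 2i/LIF and at most 0.400 CPM elsewhere, but did not pass the filter.

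Hoxb13, the highest member of the Hoxb cluster by mean CPM, stood at 2.01 and 2.58 CPM in 2i/LIF, 1.06 and 0.469 in FBS/LIF, 0.331 and 0.347 in VitC/LIF, 0.367 and 0.277 in L-Pro/LIF and 0.380 and 0.050 in F/A. The 2i/LIF libraries lay above all others, and the log2 fold change of 1.57 over FBS/LIF (SE 0.60, edgeR adjusted p = 0.08) did not pass, although it did on unique fragments (0.03). Hoxb9 differed by 1.55 (SE 0.73, edgeR adjusted p = 0.15).

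Hoxd8 and Hoxd13 lay on the other side. Hoxd8 had 8 and 7 unique fragments in FBS/LIF, 14 and 17 in L-Pro/LIF, 2 and 2 in VitC/LIF, 0 and 5 in F/A, and 1 and 0 in 2i/LIF. Its level was 0.053 and 0 CPM in 2i/LIF against 0.601 and 0.375 in FBS/LIF, and its log2 fold change was -3.87 (SE 1.19, edgeR adjusted p = 0.038). The ratio of summed unique fragments was 13.0-fold lower, with a 95% counting interval from 2.00 to 548, and DESeq2 did not call it (adjusted p = 0.079). Hoxd13 fell by 1.98 on the log2 scale (SE 0.53, edgeR adjusted p = 0.022). The Hoxd8 call was lost when any 1 of the 4 libraries was left out (edgeR adjusted p from 0.068 to 0.17), and the Hoxd13 call was lost without either FBS/LIF library or 2i/LIF replicate 1 (0.054 to 0.13).

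**Figure D4:**
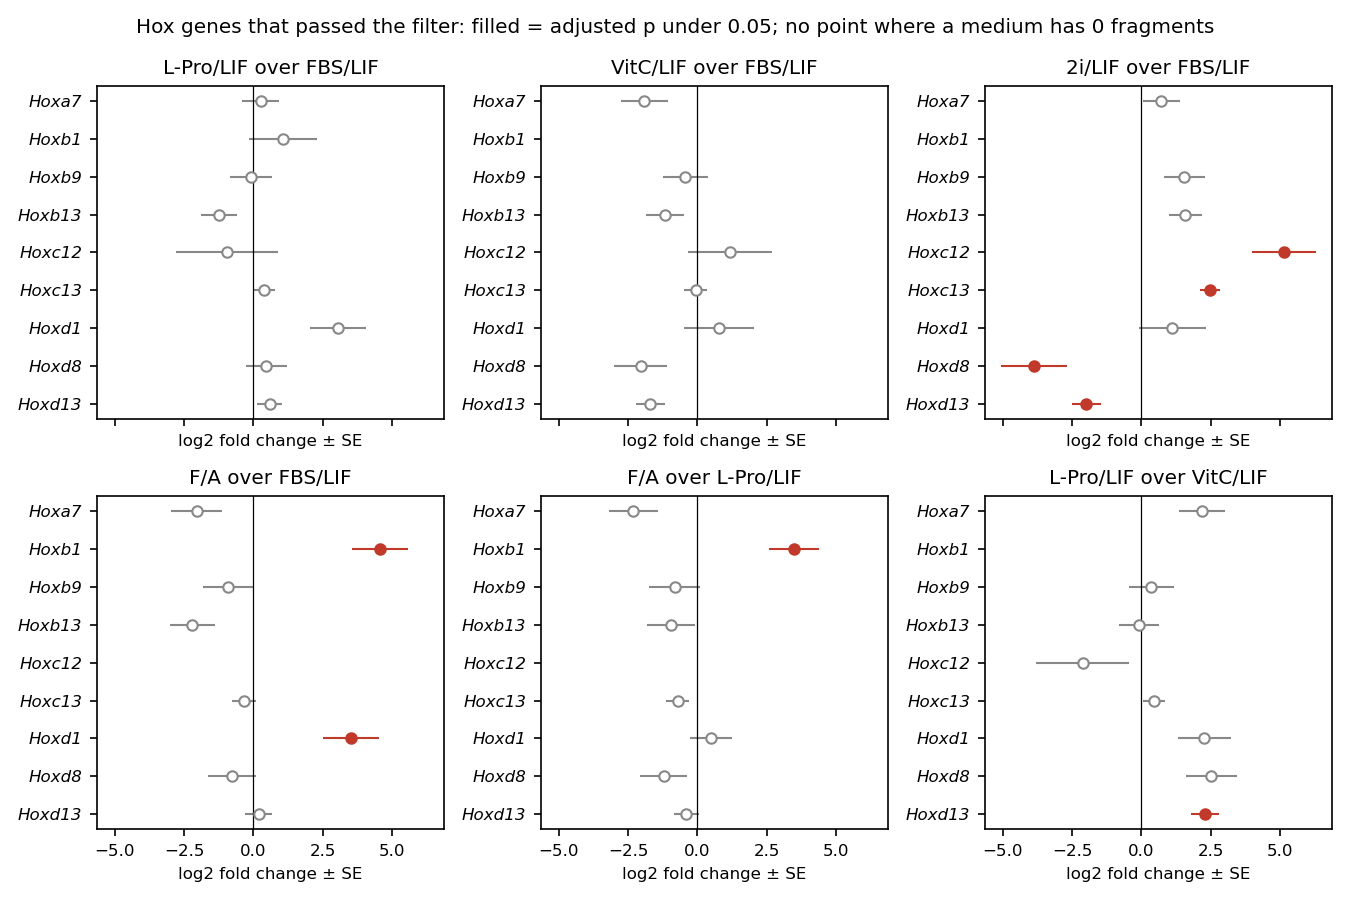
Points give the log2 fold change of the 9 tested Hox genes in the 6 comparisons and bars the SE from edgeR, with filled points for an adjusted p under 0.05. No point is drawn where a medium had 0 fragments. In 2i/LIF over FBS/LIF, Hoxc12 and Hoxc13 lie to the right at 5.13 and 2.46, and Hoxd8 and Hoxd13 to the left at -3.87 and -1.98.

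The single-library experiment gave a time axis without replicates, so no test is possible there and counts carry exact Poisson intervals only. In these libraries counts of 2 were more frequent than counts of 1 (1440 against 1078 genes at day 0), and the intervals may therefore be too narrow. Totals ranged from 33162689 to 39711061 counts. A member was read as changed when it differed at least 2-fold in CPM with at least 20 counts in the higher library. Hox RNA was most abundant at day 3 of F/A: the 37 members summed to 119 counts at day 0, 217 after L-proline, 2792 at day 3 of F/A and 409 at day 5. In CPM these sums were 3.48, 5.46, 78.4 and 12.3. Members with at least 1 count numbered 15, 26, 36 and 26.

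At F/A day 3, 35 of the 37 members had a higher CPM than at day 0, Hoxb13 was lower, with 15 counts at day 0 and 8 at day 3, and Hoxc5 had no count in either. Over all genes with a count in either library, 54.6% were higher and 45.4% lower. With at least 20 counts, 19 members were at least 2-fold higher and none lower, where 19.7% of all genes were higher and 13.5% lower by that rule. Only Hoxb9 and Hoxc13 had 20 counts at day 0, so the other 17 reached the minimum through the day 3 library itself.

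The 3′ genes held most of the Hox RNA at F/A day 3, but only with Hoxb1 included. Of the counts of paralog groups 1 to 4, Hoxb1 alone gave 653 of 1541 at F/A day 3 and 177 of 297 at day 5. Hoxb1 had 0 counts at day 0, 13 after L-proline, 653 at F/A day 3 and 177 at day 5. Against the 3 counts that a count of 0 allows, it was at least 209-fold higher at day 3 and at least 60.8-fold higher at day 5. It was highest at day 3, and its day 5 level lay above day 0 and L-proline.

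Hoxa3, a gene of pharyngeal arches and neck, had 0, 0, 240 and 18 counts, at least 76.7-fold higher at day 3. Hoxa2, which patterns the second pharyngeal arch, had 0, 1, 147 and 20, Hoxb2 0, 1, 122 and 20, Hoxb3 0, 7, 81 and 13, and Hoxb4 0, 2, 181 and 5. Hoxa4 had 2, 0, 86 and 4. All of these had 7 counts or fewer in the day 0 and the L-proline libraries. Paralog groups 1 to 4 made up 55.2% of the Hox counts at day 3 (95% exact binomial interval 53.3 to 57.0) and 72.6% at day 5 (68.0 to 76.9), against 6.72% at day 0 (2.95 to 12.8) and 18.9% after L-proline (13.9 to 24.7).

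Several middle and 5′ members of the Hoxa and Hoxb clusters were also past 2-fold at day 3. Hoxa5, a gene of neck and thorax, had 4, 2, 274 and 6 counts, which is 65.7-fold higher at day 3 than at day 0 (95% interval 25.4 to 243) and 42.5-fold lower at day 5 than at day 3 (19.3 to 117). Hoxa7 had 4, 4, 85 and 2 counts, Hoxa9 2, 0, 46 and 2, and Hoxa10 0, 0, 102 and 0. In the Hoxb cluster Hoxb5 had 0, 3, 69 and 2, Hoxb6 2, 3, 40 and 0, Hoxb7 7, 8, 55 and 4, and Hoxb8 2, 2, 50 and 0. Hoxb9 was already present at day 0, with 41, 38, 147 and 23 counts, 3.44-fold higher at day 3 (2.42 to 4.985).

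The Hoxc and Hoxd clusters took part less by level. Hoxc13 had 24, 33, 68 and 17 counts, 2.72-fold higher at day 3 (95% interval 1.68 to 4.52), and no other Hoxc member exceeded 13 counts in any library. Hoxc12, the gene that marked 2i/LIF in the other experiment, had 0, 0, 2 and 0. Hoxd13 had 8, 54, 191 and 42 counts, 22.9-fold higher at day 3 (11.4 to 53.8), 5.41-fold at day 5 (2.51 to 13.3) and 5.81-fold after L-proline (2.75 to 14.1). Hoxd8 had 0, 3, 20 and 2 counts. In summed CPM at day 3 the 10 described Hoxa genes reached 28.5, Hoxb 39.5, Hoxd 7.41 and Hoxc 3.03.

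**Figure D5:**
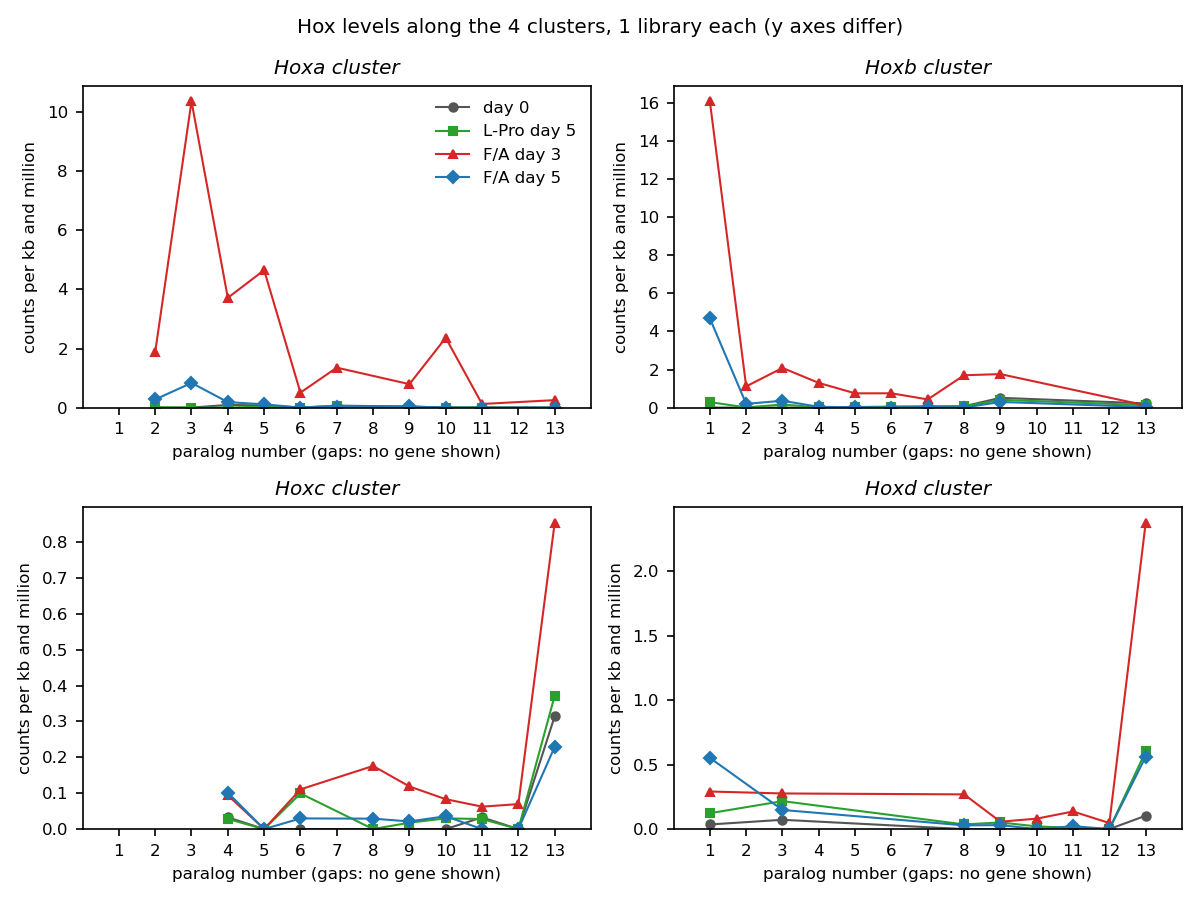
Each panel shows 1 cluster with paralog number on the horizontal axis and CPM per kilobase of the median effective length in the other experiment, on a vertical axis that differs between panels. Each line is 1 library. The F/A day 3 line is highest at Hoxa3 (10.4), Hoxb1 (16.1), Hoxc13 (0.854) and Hoxd13 (2.37). By counts Hoxa5 (274) stood above Hoxa3 (240). The Hoxa3 value rests on a length of 649 bases from libraries in which it had 4 unique fragments.

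From day 3 to day 5 of F/A Hox RNA was lower again. With at least 20 counts, 19 of 20 members were at least 2-fold lower at day 5, where 12.3% of all genes were, and none was 2-fold higher, where 9.76% were. All 19 had to be high at day 3 to be counted, except Hoxb1, Hoxa2, Hoxb2, Hoxb9 and Hoxd13, which also had 20 counts at day 5. Over the 37 members 34 were lower, Hoxc4 and Hoxd1 were higher, and over all genes with a count 54.5% were lower and 45.5% higher. Hoxb1 was 3.43-fold lower (95% interval 2.90 to 4.08) and Hoxc13 3.72-fold (2.16 to 6.76), the smallest ratios among these 19. Hoxd1 had 2, 8, 17 and 30 counts in the 4 libraries and was 15.45-fold higher at day 5 than at day 0 (3.92 to 133). At day 5, 5 of 7 members with enough counts were at least 2-fold higher than at day 0, where 21.6% of all genes were, and none was lower, where 17.5% were. The 5 were Hoxa2, Hoxb1, Hoxb2, Hoxd1 and Hoxd13, and all 5 reached the minimum only through the day 5 library itself. Hoxb9 and Hoxc13, which had 20 counts at day 0, were not higher, with 23 and 17 counts at day 5 against 41 and 24.

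After 5 days of L-proline there was little Hox RNA in this experiment, and ratios to day 0 also carry the vitamin C of day 0. Hoxd13 was the 1 of 3 members with enough counts to be at least 2-fold higher than at day 0, where 20.9% of all genes were, and none was lower, where 16.5% were. Hoxd13 reached the minimum only through the L-proline library, with 54 counts against 8. Over the 28 members with a count in either library, 18 were higher and 10 lower, against 49.3% and 50.7% of all genes. Hoxb1 and Hoxd1, which were called higher in F/A after 5 days in the other experiment, were 2 of the 5 members past 2-fold at F/A day 5 here.

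Among the DNA-binding partners of HOX proteins, 8 genes of the Pbx, Meis and Pknox families are described, and all were tested. In F/A against FBS/LIF 4 were called higher and 0 lower (median log2 fold change 0.95), where 24.4% and 22.0% of all genes were. In L-Pro/LIF 3 were called higher and 1 lower, against 13.7% and 10.3% of all genes, in 2i/LIF 2 and 2, against 12.5% and 17.9%, and in VitC/LIF 0 of either, against 0.362% and 0.312%. These shares hold for each list that follows. Without F/A replicate 1, 5 were called higher and 1 lower in F/A. Pbx3 rose by 2.61 in F/A (SE 0.28, edgeR adjusted p = 0.00017) and Meis3 by 1.73 (SE 0.27, edgeR adjusted p = 0.0012), while Pbx2 was not called (0.24, SE 0.18, edgeR adjusted p = 0.3). Meis2, a partner of the MEIS family, had 100, 65, 3137 and 897 counts in the order day 0, L-proline, F/A at day 3 and F/A at day 5. Meis2 was highest in the library in which the Hox genes were, as was Meis1 (15, 51, 150 and 26). Meis3 was not, with 21, 422, 171 and 444 counts. Pbx3 had 165, 1021, 1551 and 1356, so its day 3 and day 5 counts were close. Meis1 fell by 1.84 in 2i/LIF (SE 0.27, edgeR adjusted p = 0.0013).

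Of 20 genes that pattern the trunk and tail, including Cdx, Wnt and Fgf genes, 19 were tested. In F/A 13 were called higher and 3 lower than in FBS/LIF (median 2.10), against 24.4% and 22.0% of all genes. In L-Pro/LIF the counts were 10 and 4 (median 1.35), against 13.7% and 10.3%, and in 2i/LIF 6 and 6 (median -0.05), against 12.5% and 17.9%. Cdx1, a caudal gene that binds Hox control regions and answers to Wnt, rose by 5.39 in 2i/LIF (SE 0.37, edgeR adjusted p = 2.2e-05), to 25.5 and 25.8 CPM against 0.786 and 0.422, and was not called in F/A (-0.66, SE 0.46, edgeR adjusted p = 0.27). T, the mesoderm gene brachyury, had 24, 2072, 737 and 28186 counts in the same order, and its peak thus differs from that of the Hox sums. Peaks varied within this list. Wnt8a had 16, 314, 2777 and 1238 counts, highest at F/A day 3 as the Hox sums were. Cdx4 had 23, 145, 72 and 33, highest after L-proline.

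Of 19 retinoic acid genes 17 were tested: 9 were called higher and 3 lower in F/A (24.4% and 22.0% of all genes), 4 and 1 in L-Pro/LIF (13.7% and 10.3%), and 1 and 5 in 2i/LIF (12.5% and 17.9%), each against FBS/LIF. Cyp26a1, the enzyme that breaks retinoic acid down, rose by 3.88 in F/A (SE 0.48, edgeR adjusted p = 0.00038) and had 8, 73, 30 and 1270 counts in the 4 single libraries. It was thus low at F/A day 3, though above its 8 counts at day 0, and high at day 5. Each value comes from a single library, and a link to the Hox counts was not tested. Rarb, a retinoic acid receptor, had 34, 17, 95 and 18 counts.

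Polycomb genes, which keep Hox clusters silent, were called in F/A at about the share of all genes. Of 28 tested, 7 were called higher and 8 lower in F/A (median -0.03), against 24.4% and 22.0% of all genes. In L-Pro/LIF the counts over FBS/LIF were 4 and 6 (median -0.14), against 13.7% and 10.3%, and in 2i/LIF 7 and 4 (median 0.29), against 12.5% and 17.9%. In F/A the core subunit Eed fell by 1.65 (SE 0.15, edgeR adjusted p = 6.9e-05) and Jarid2, which helps recruit the complex, fell by 1.71 (SE 0.20, edgeR adjusted p = 0.00028). Of 16 trithorax group genes, which oppose that silencing, 4 were called higher and 4 lower in F/A, again near the 24.4% and 22.0% of all genes, and 2 were called higher without F/A replicate 1. Kdm6b, a demethylase of the Polycomb mark, stood at 50.6 and 16.8 CPM in F/A against 3.10 and 5.58 in FBS/LIF. It rose by 2.94 (SE 0.53, edgeR adjusted p = 0.0027), and by 1.94 without F/A replicate 1 (edgeR adjusted p = 0.0083).

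The strand setting of the authors' counting is not stated, so reads of members and of overlapping antisense transcripts cannot be told apart. Hoxb3os, which overlaps Hoxb2 and Hoxb3, had 1, 5, 204 and 50 counts in the 4 single libraries and peaked at F/A day 3 with the genes beside it. In the 5-media experiment Hoxb3os had 1.65 and 1.20 CPM in F/A and 0.550 and 0.632 in L-Pro/LIF against 0.0462 and 0.0937 in FBS/LIF, and it was called higher in both (edgeR adjusted p = 0.0032 and 0.025). The L-Pro/LIF call was lost when any 1 of the 4 libraries was left out (edgeR adjusted p from 0.075 to 0.15). Hoxb2 and Hoxb3 did not pass the filter. Halr1, a non-coding RNA beside the Hoxa cluster, had 2.96 and 2.86 CPM in FBS/LIF, 0.184 and 0.079 in L-Pro/LIF and 0 and 0.050 in F/A, and was called lower in L-Pro/LIF and F/A (edgeR adjusted p = 0.00036 and 0.00014). In the single libraries it had 768, 2, 297 and 8 counts, highest at day 0.

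Some single markers of other cell types were highest in the same library as the Hox genes, and the part of such cells in the results was not tested. At F/A day 3, 6 of the 7 neural markers with enough counts were at least 2-fold higher than at day 0 and 1 was lower. By that rule 19.7% of all genes were higher and 13.5% lower, which holds for each marker list at day 3. Only 4 neural markers had enough counts when L-proline or F/A day 5 was set against day 0. The others of the 7, such as Olig3, thus reached the minimum through the day 3 library itself. Markers of the other lists could do the same. Pax6, a gene of neural progenitors, had 69, 80, 666 and 91 counts, and Olig3, a gene of the dorsal neural tube, had 9, 0, 128 and 0, so both peaked in the library in which the Hox genes did. The neural list as a whole did not peak there. All 9 neural markers had a count in that library, and their summed level was 195 CPM, against 79.4 at day 0, 836 after L-proline and 796 at F/A day 5. Of 8 paraxial mesoderm markers, 2 were higher and 2 lower at day 3, their sum was 47.8 CPM against 31.4 at day 0, 8.59 after L-proline and 26.0 at day 5, and Msgn1, which defines that tissue, had 0 counts. Of 8 lateral and extraembryonic mesoderm markers, all had a count at day 3, and of the 6 with enough counts 4 were at least 2-fold higher than at day 0 and 1 was lower. Their sum was 17.1 CPM at day 3, against 21.3 at day 0, 17.2 after L-proline and 19.2 at F/A day 5. In F/A against FBS/LIF, 3 of the 5 tested were called higher and 1 lower (median log2 fold change 2.02), and their sum was 27.9 and 21.0 CPM against 9.89 and 13.3. Fibroblast and feeder markers were called higher in F/A for 10 of 14 tested and lower for 1, and in 2i/LIF for 2 higher and 6 lower. Their summed CPM was 476 and 482 in F/A, 205 and 210 in 2i/LIF, 122 and 145 in L-Pro/LIF, 104 and 105 in VitC/LIF, and 69.2 and 72.6 in FBS/LIF, with Col3a1 at 0 in 2i/LIF. Of the 5 neural markers tested against FBS/LIF, 3 were called higher and 1 lower in F/A, and all 5 lower in 2i/LIF. The shares of all genes called were 24.4% higher and 22.0% lower in F/A, and 12.5% and 17.9% in 2i/LIF. The pluripotency genes Pou5f1, Sox2, Nanog, Sall4 and Lin28a had counts in every library, with a summed level from 1429 CPM in F/A replicate 1 to 2769 CPM at day 0.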

How the data were processed

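RNA was sequenced in 14 libraries, aligned to mm9 (NCBIM37), and the submitters' processing notes name CASAVA, TopHat2 2.0.13, Bowtie, HTSeq 0.6.1p1 and DESeq. The single-library experiment was deposited by the authors as raw counts per gene. For the 5-media experiment the deposited files give, per the file headers, the natural log of an FPKM value per gene, counts of unique hits, an effective length and the mapped total. From these, estimated counts were computed and rounded. Genes were filtered with filterByExpr (minimum count 10), scaled by TMM and tested, 2-sided, in 1 edgeR 4.0.16 model of 10 libraries (R 4.3.3), with Benjamini-Hochberg adjustment over 16033 genes. SE is the size of the log2 fold change divided by √F, and CPM is TMM-scaled. The test was checked on simulated data whose changed genes had higher counts than any Hox gene, so that check does not cover genes at Hox depth. In the single-library experiment CPM uses total counts, ratios have exact 95% intervals, and a 0 is replaced by 3 counts per library for bounds. Intervals cover counting error only. Alternatives were DESeq2 1.42.0, other size factors, filters, unique hits, fewer media, a replicate block, left-out libraries and, for single libraries, TMM totals and other minimum counts. Named with values in every library were members called in at least 1 comparison and the most abundant of each cluster, and from the single libraries members past 2-fold with at least 20 counts. From other lists up to 3 called genes with the largest change and up to 2 uncalled genes per comparison were eligible. Genes outside that rule (Hotair, Rarb, Olig3, Hoxc4) were chosen after their values were seen. So were the single-library counts of Wnt8a, Cdx4, Meis1, Meis3 and Pbx3. In all, 1 member and 1 gene of the partner list are not reported here and were left out of counts and sums, but not of the fits. Members and lists were chosen with earlier results of these data known. The combined tables of the authors were not used.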

Additional observations from a re-analysis of the deposited data

How the results depend on the processing

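The 8 calls of single Hox genes were recomputed under 85 alternatives: 63 kept direction and call, 22 kept direction without the call and 0 reversed. In 1 more, Hoxb1 in F/A over L-Pro/LIF, DESeq2 gave no adjusted p. Hoxc13 in 2i/LIF and Hoxb1 in F/A, both over FBS/LIF, kept their calls under all that were run. Counts of called members moved by over 1.5 times as follows. L-Pro/LIF over FBS/LIF, higher: 1 on unique hits (Hoxd1). 2i/LIF over FBS/LIF: 1 to 2 higher without 1 library, and lower 1 with the CPM filter, 1 with DESeq2, 1 with only these media, and 0 to 1 without 1 library. F/A over FBS/LIF: higher 1 with the CPM filter, 1 with only these media and 1 to 2 without 1 library, and lower 1 without the filter, 1 on unique hits and 0 to 1 without 1 library (Hoxb13, or Hoxd8 without F/A replicate 2). F/A over L-Pro/LIF: 0 higher with DESeq2, with only these media and without any 1 library, and 0 to 1 lower without 1 library (Hoxd8 without F/A replicate 2). L-Pro/LIF over VitC/LIF, higher: 2 on unique hits, 2 with only these media and 0 to 1 without 1 library. In the single libraries a minimum of 10 counts gave 2 members higher after L-proline (Hoxd13 and Hoxb1) and 1 lower at F/A day 5 (Hoxb13), and a minimum of 50 gave 1 higher at F/A day 5 (Hoxb1). The cause of these shifts was not tested.

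Libraries with the same replicate number deviated together, with a positive correlation (0.098 to 0.518) in all 10 pairs of media. The labels state no pairing, and the main model had no replicate block. With the replicate block, Hox genes called higher in L-Pro/LIF, 2i/LIF, F/A and VitC/LIF over FBS/LIF numbered 0, 2, 2 and 0, as without it, and no other count of called members changed. The 28 members with under 50 unique fragments over 10 libraries that failed the filter were not tested. Leaving out libraries for genes of the other lists was chosen after seeing the data.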
